A study of Mus musculus with 12 samples.

Results

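The transcripts described here come from 7 mouse genes of the Bex (brain expressed X-linked) and Tceal (transcription elongation factor A-like) families, Bex1, Bex2, Bex4, Tceal1, Tceal3, Tceal5 and Tceal8, among the 24255 genes of an oocyte RNA-seq table. They were picked by symbol with the rise of Bex4 in MUT oocytes and of Tceal8 in GcKO oocytes against WT already known, so their values and calls against WT are given as a description, and no test is read from them. Of the 7 members, 4 reached the minimum level used for testing (at least 1 FPKM, fragments scaled to transcript length and to the mapped fragments of the library, in at least 1 library), and Tceal1, Tceal3 and Tceal5 were listed at 0 in all 12 libraries. The remaining 5 mouse genes of both families, Bex3 (listed under its older symbol Ngfrap1), Bex6, Tceal6, Tceal7 and Tceal9 (listed as Wbp5), are given beside them as relatives.

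The study asked what becomes of the mouse oocyte when DPAGT1, the enzyme that starts the assembly of N-linked glycans, is altered. Oocytes were taken from C57BL/6 females of 3 weeks, 46 h after an injection of 5 IU PMSG (a gonadotrophin that drives follicle growth), and each library was made by Smart-seq2 from 20 oocytes. There were 4 groups with 3 libraries each. WT oocytes carried the normal gene, and MUT oocytes came from mice with the D166G change of Dpagt1, an ENU-induced missense mutation present in every cell of the animal. GcKO oocytes had the genotype Dpagt1F/F Gdf9CRE/+, in which Cre is made in the oocyte itself and removes the floxed gene there. AmcKO oocytes had the genotype Dpagt1F/F Amhr2CRE/+, in which Cre acts in granulosa cells, so that the sequenced cell was not the one targeted. GcKO and AmcKO thus share the floxed allele, which WT and MUT lack. Replicates were numbered 1 to 3 in MUT and GcKO and 4 to 6 in WT and AmcKO, and if collection went by number, its effect and that of the group cannot be told apart where MUT or GcKO is set against WT or AmcKO. The labels do not say whether the 3 libraries of a group came from separate females, and p-values then measure only the spread between these libraries.

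Bex and Tceal genes encode small, mostly disordered proteins and lie close together on the X chromosome of placental mammals, where they are thought to derive from a shared ancestor. The Bex proteins are best known from neurons, where Bex1 and Bex3 bind the neurotrophin receptor p75NTR, and the Tceal proteins were named for a resemblance to the elongation factor TFIIS (Tcea). A fully grown oocyte makes little new RNA, and both of its X chromosomes are active, so that its X-linked transcripts are a store built up during growth.

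Dpagt1 itself was barely seen in the libraries. No WT or AmcKO library had a value above 0. The MUT libraries (replicates 1, 2 and 3) read 0.878, 0.408 and 0.985 FPKM, and of the GcKO libraries replicate 2 alone had a value, 0.366 FPKM. The MUT and GcKO values correspond to 2 fragments or fewer, so the genotypes could not be checked from this transcript.

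For genes with a single transcript, low values of the table fall on multiples of what 1 sequenced fragment is worth; no such step was found for Tceal8. For a transcript with 1 kb of countable length, 1 fragment was worth 1.78 to 2.07 FPKM in the WT libraries. The range was 0.787 to 0.949 FPKM for MUT libraries, 0.708 to 1.18 FPKM for GcKO and 0.954 to 1.18 FPKM for AmcKO. The sum of all FPKM ran from 482314 in GcKO replicate 1 to 1226005 in WT replicate 4. The fragments counted on 2706 genes with a single transcript differed less. They numbered 63810 to 79938 per WT library, 75258 to 98580 per MUT, 69562 to 106225 per GcKO and 93685 to 105021 per AmcKO library. The value of 1 fragment therefore does not stand for depth alone. A 0 in a WT library leaves room for a higher level than a 0 in MUT or GcKO.

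Tceal8 was the member with the highest mean over the 12 libraries, although Bex4 exceeded it in every MUT library. GcKO replicates 1, 2 and 3 had 87.6, 92.2 and 140.1 FPKM, and AmcKO replicates 4, 5 and 6 had 81.0, 40.9 and 13.4 FPKM. The level was 18.1, 6.23 and 0 FPKM in WT replicates 4, 5 and 6 and 8.34, 2.69 and 5.69 FPKM in MUT replicates 1, 2 and 3. Every GcKO library lay above every WT, MUT and AmcKO library, while the AmcKO libraries were spread widely, with replicate 6 below the highest WT library. The group means fell in the order GcKO (106.6 ± 29.0 FPKM, SD, n = 3), AmcKO (45.1 ± 34.0 FPKM, SD, n = 3), WT and MUT (5.57 ± 2.83 FPKM, SD, n = 3), and the neighbours WT and MUT overlapped, as did AmcKO and WT. Among the 11233 genes tested, the mean of Tceal8 stood at percentile 93.4 in GcKO and at percentile 59.0 in MUT.

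On the log2(FPKM + 1) scale, on which all fold changes are given and which understates those of low genes, Tceal8 differed from WT by 4.35 in GcKO, 2.83 in AmcKO and 0.25 in MUT. The AmcKO value ran from 1.64 (without WT replicate 6) to 3.77 (without WT replicate 4) when single libraries were left out, and the GcKO value from 3.16 to 5.29. The MUT value turned negative without WT replicate 6 (-0.94) or MUT replicate 1 (-0.06), so no direction is given for it. The log2 difference between AmcKO and MUT contains no WT or GcKO library, although these enter the variance of the fit. Values of AmcKO and of MUT against WT were known when the members were picked, so this comparison is also a description. In this comparison Tceal8 was 2.58 higher in AmcKO (standard error 0.83, limma adjusted p = 0.0852) and missed the threshold, with all 3 AmcKO libraries above the 3 MUT libraries. This p lay between 0.0263 and 0.298 over the 15 alternative settings. It passed the threshold when only these 2 groups were fitted (limma adjusted p = 0.0263), with a mean of at least 5 FPKM as the minimum (0.0394, limma) and without AmcKO replicate 6, the lowest of its group (0.0460, limma).

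Bex4 had another order of groups. Its level was 31.1, 8.07 and 17.7 FPKM in MUT replicates 1, 2 and 3 and 5.95, 1.90 and 11.4 FPKM in AmcKO replicates 4, 5 and 6. In GcKO replicates 1, 2 and 3 it was 2.50, 0 and 7.92 FPKM, and in WT only replicate 5 had a value, 3.43 FPKM, with replicates 4 and 6 listed at 0. MUT lay highest and did not overlap GcKO or WT, but AmcKO replicate 6 exceeded MUT replicate 2, and the AmcKO, GcKO and WT libraries overlapped each other.

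In fragments, the Bex4 values correspond to about 22, 6 and 11 in MUT, 3, 1 and 7 in AmcKO, 2, 0 and 4 in GcKO and 0, 1 and 0 in WT. The first of these lies above the 12 fragments up to which values were checked to be whole and is rounded. In all, about 39 fragments in MUT stood against 1 in WT. A count of up to 3 fragments would have read as 9.35, 10.5 and 9.06 FPKM in WT replicates 4, 5 and 6, which is above the 8.07 FPKM of MUT replicate 2. The lowest MUT library therefore could not have been told from the WT libraries by this limit, while the other MUT libraries lay above that limit.

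The fold change of Bex4 against WT was 3.42 in MUT, 1.94 in AmcKO and 0.94 in GcKO. It was positive in each of these groups under every alternative setting run, and ranged from 2.99 to 5.66 in MUT, 1.45 to 3.98 in AmcKO and 0.19 (without GcKO replicate 3) to 1.96 in GcKO. AmcKO and GcKO differed by 1.00 in favour of AmcKO (standard error 0.80, limma adjusted p = 0.544). This value ran from 0.17 without GcKO replicate 2 to 1.75 without GcKO replicate 3 when single libraries were left out. Values of both groups against WT were known when Bex4 was picked, so this difference is a description.

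**Figure D1:**
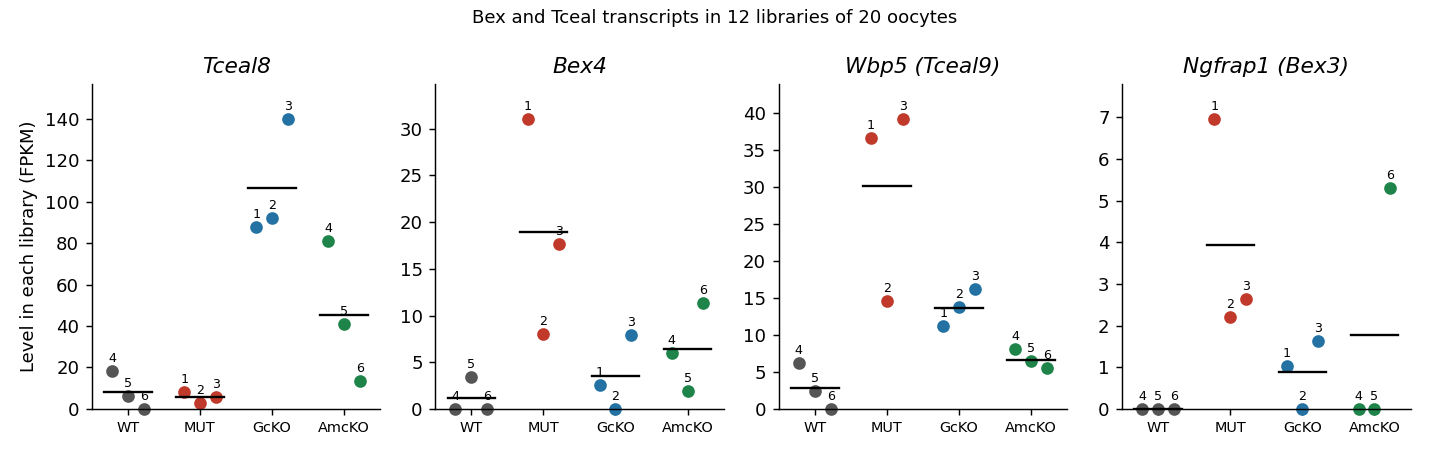
Levels of Tceal8, Bex4, Wbp5 (Tceal9) and Ngfrap1 (Bex3) in FPKM (vertical axes, linear, from 0) for the 4 groups. Each point is 1 library with its replicate number and each bar is the group mean; Tceal8 is highest in the GcKO libraries (87.6 to 140.1 FPKM), while MUT replicate 1 has the highest values of Bex4 and Ngfrap1 (31.1 and 6.97 FPKM).

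Bex1 and Bex2 were at the limit of detection. Bex1 was listed at 1.21 FPKM in MUT replicate 1 and at 1.08 FPKM in GcKO replicate 1, each worth 1 fragment, and at 0 elsewhere. Bex2 was listed at 1.08 and 1.29 FPKM in MUT replicates 2 and 3, again 1 fragment each, and at 0 in the other libraries. In the WT libraries up to 3 fragments would have read as 7.63 to 8.87 FPKM for Bex1 and 7.32 to 8.50 FPKM for Bex2, so the zeros in WT do not exclude the levels read in MUT and GcKO. Bex2 was nevertheless called in some alternatives, in MUT against WT after scaling to the same FPKM sum or without MUT replicate 1, and in AmcKO against MUT without MUT replicate 1 (limma adjusted p = 0.0416). These calls rest on 1 fragment in each of 2 libraries. No fragment size could be read for Tceal1, Tceal3 and Tceal5, which had no value above 0. Of all 24255 genes, 9322 (38.4%) were likewise at 0 in every library, and of the 1047 X-linked genes 475 (45.4%).

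Counted by the limma test over all genes, 1 of the 7 members, Bex4, was called in MUT against WT, where 20.8% of the genes tested were called. In GcKO against WT 1 member, Tceal8, was called, beside 20.2% of all genes. Nothing is read from these counts, since the same contrasts were known when the members were picked. In AmcKO against WT 0 members were called by limma, beside 0.214% of all genes, and 2 had an unadjusted p under 0.05, as did 1754 of the 11233 genes. These 2, Bex4 and Tceal8, were known to be low in the same WT libraries, so nothing is read from this count either. Between the groups with an altered Dpagt1, limma called 0 members in GcKO against MUT (0.205% of all genes), 0 in AmcKO against MUT (6.49%) and 0 in AmcKO against GcKO (5.46%). At an unadjusted p under 0.05 the members numbered 3, 2 and 0 in these comparisons, and the genes 741, 2314 and 2163. The 3 and the 2 include Bex2, which reached the minimum level through MUT alone, so nothing is read from its place among them. GcKO against MUT sets the group in which Tceal8 had been seen to rise against that in which Bex4 had, so its counts are also a description. Tceal8 was 4.10 higher and Bex4 2.48 lower in GcKO on the log2 scale in that comparison. The counts of AmcKO against MUT and AmcKO against GcKO are a description as well, since values of each group against WT were known.

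Among the relatives, Wbp5 (Tceal9, first described as a protein that binds WW domains) had the clearest values. Its level was 36.7, 14.5 and 39.3 FPKM in MUT replicates 1, 2 and 3, 11.1, 13.7 and 16.2 FPKM in GcKO replicates 1, 2 and 3, and 8.09, 6.41 and 5.50 FPKM in AmcKO replicates 4, 5 and 6. In WT replicates 4, 5 and 6 it was 6.26, 2.36 and 0 FPKM, or 3, 1 and 0 fragments. A limit of 3 fragments stood at 6.32, 7.12 and 6.125 FPKM in these libraries. The MUT and GcKO values all lay above this limit, while AmcKO replicate 6 lay below it and AmcKO replicate 5 within its range. All MUT and GcKO libraries lay above all AmcKO and WT libraries, and MUT and GcKO overlapped, as did AmcKO and WT. The transcript rose in MUT by 3.31 (standard error 0.55, limma adjusted p = 0.00107) and in GcKO by 2.33 (standard error 0.55, limma adjusted p = 0.00922) against WT, higher in 3 of 3 libraries each time. Both calls held in every alternative setting run, with adjusted p up to 0.00963 and 0.0336. In AmcKO the log2 value against WT was 1.39 (limma adjusted p = 0.258; 0.62 to 2.05 on the log2 scale without single libraries), and AmcKO lay 1.92 below MUT (limma adjusted p = 0.0548), past the threshold in 4 of the 15 alternatives, among them the fit without MUT replicate 2 (adjusted p = 0.0472, limma; range over all alternatives 0.00414 to 0.329).

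Ngfrap1 (Bex3), whose product was first described as a partner of p75NTR in cell death, had no value above 0 in WT. MUT replicates 1, 2 and 3 showed 6.97, 2.2 and 2.63 FPKM, or 6, 2 and 2 fragments. GcKO replicates 1, 2 and 3 showed 1.03, 0 and 1.62 FPKM, and AmcKO replicates 4, 5 and 6 showed 0, 0 and 5.32 FPKM. The MUT libraries all had the transcript, as did 1 AmcKO library at a level between theirs. The log2 difference between MUT and WT was 2.18 and was called (limma adjusted p = 0.0248), but not without a minimum level (adjusted p = 0.0527 by limma), not without WT replicate 4, 5 or 6 (adjusted p = 0.0551, 0.0536 and 0.0559 by limma), nor without MUT replicate 1 or 3 (adjusted p = 0.0992 and 0.0508 by limma). A limit of 3 fragments stood at 7.37 to 8.56 FPKM in the WT libraries, above all MUT values. Bex6 was listed at 1.42 FPKM in AmcKO replicate 4 and at 0 elsewhere, and Tceal6 and Tceal7 were at 0 in every library. The step of Bex6 was read from this single value, so its worth of 1 fragment is assumed and not measured. Of the 5 relatives, 3 were tested, and limma called 2 higher in MUT, 1 in GcKO and 0 in AmcKO against WT, with 0 lower, beside 20.8%, 20.2% and 0.214% of all genes called in either direction. Between MUT, GcKO and AmcKO limma called 0 of them in the main fit. Among the alternatives, Ngfrap1 was called lower in AmcKO than in MUT without AmcKO replicate 6 (limma adjusted p = 0.0172) and Wbp5 lower in AmcKO than in GcKO after scaling to the same sum (limma adjusted p = 0.0305).

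Markers of other ovarian cells were read beside these values. Of the 20 granulosa and cumulus markers, 10 were tested, and limma called Inha, Gja1 and Hsd17b1 higher and Esr2 lower in MUT than in WT, with a median log2 change of -0.03 over the 10. In that comparison 20.8% of all genes tested were called. MUT replicates 1, 2 and 3 had 5.44, 1.13 and 5.44 FPKM of Inha, the alpha subunit of inhibin, and 3.30, 2.35 and 4.26 FPKM of Gja1, the connexin that joins granulosa cells. They had 2.06, 0.642 and 3.09 FPKM of Hsd17b1, an enzyme of oestradiol synthesis, and every WT library was at 0 for all 3 genes. No floor was read for these 3 genes, and 1 fragment of a transcript of 1 kb was worth 1.78 to 2.07 FPKM in WT. In GcKO, Inha read 1.08, 0.505 and 0.842 FPKM and Gja1 read 0.453, 1.69 and 0.353 FPKM, and in AmcKO the highest values were 0.797 FPKM for Inha and 0.285 FPKM for Gja1. Outside MUT, Hsd17b1 had a value in GcKO replicate 3 alone (0.957 FPKM). Inha and Gja1 were lower in AmcKO than in MUT (limma adjusted p = 0.0153 and 0.00283), and Esr2 was higher (limma adjusted p = 0.0226). Hsd17b1 reached the minimum level in MUT alone, so nothing is read from its calls. In GcKO against WT the only call in this list was Esr2, which fell by 1.29 (limma adjusted p = 7.9e-04). Over all genes tested, 20.2% were called in GcKO against WT and 6.49% in AmcKO against MUT. The part of these cells in the Bex and Tceal values was not tested.

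The defining granulosa markers Amh, Amhr2 and Foxl2 were at 0 in every library, as were Slc38a3, Npr2 and Wt1, while Fshr ran from 0 to 1.72 FPKM and Cyp19a1 from 6.70 to 20.9 FPKM. In the order of replicate numbers, the 20 markers summed to 296.9, 285.2 and 260.7 FPKM for WT, 187.6, 165.4 and 176.0 for MUT, 149.4, 192.9 and 225.9 for GcKO, and 228.6, 230.9 and 213.6 for AmcKO. Most of it was Serpine2, the highest on average over the 12 libraries, at 86.7 to 135.7 FPKM, and Esr2, at 39.4 to 151.7 FPKM and above Serpine2 in every WT library, so the sum did not follow the 3 markers above. Among 14 theca and stroma markers, 8 were at 0 throughout, Cyp17a1 among them, and the sum ran from 0.620 FPKM in MUT replicate 3 to 5.92 FPKM in WT replicate 4, with Dcn highest on average. Limma called Dcn lower in MUT than in WT, the only call in this list. Among 15 endothelial, blood and immune markers, 9 were at 0, with Ptprc among them, and the sum ran from 2.33 FPKM in AmcKO replicate 4 to 9.63 FPKM in WT replicate 4, led by Pecam1, with 0 calls by limma in MUT, GcKO or AmcKO against WT. Of 20 oocyte markers 19 were detected in every library, among them Gdf9 at 1631 to 3404 FPKM and Zp3 at 375.1 to 952.1 FPKM, and Sohlh1 was at 0. Dppa3, the most abundant, ranged from 7935 FPKM in MUT replicate 2 to 30143 FPKM in WT replicate 6. Limma called 7 of these markers lower and 1 higher in MUT, 6 lower and 1 higher in GcKO, and 0 in AmcKO against WT. Over all genes 20.8%, 20.2% and 0.214% were called in either direction. Scaling to the same FPKM sum moved the median log2 change of all genes from 0.12 to 0.70 in MUT and to 0.73 in GcKO. The split of these markers into lower and higher may therefore depend on the scaling.

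All 7 members lie within 645 kb of chromosome X (GRCm38, chrX:136066564-136711478, GENCODE M21), a stretch with 13 protein-coding genes, 10 of them from both families, and 18 pseudogenes. Bex4 (chrX:136138996-136140443, forward strand) and Tceal8 (chrX:136168984-136172342, reverse strand) are neighbours, 28540 bases apart, although their highest groups differed. Bex2 (chrX:136066564-136068236, reverse strand), Tceal5 (chrX:136200948-136203876, reverse strand) and Bex1 (chrX:136213972-136215513, reverse strand) lie on the same side of the block, and Tceal3 (chrX:136590842-136668378, forward strand) and Tceal1 (chrX:136707982-136711478, forward strand) on the other. Bex1 and Tceal7, on opposite strands, overlap by 735 bases in GENCODE M21 but not at the positions the FPKM table gives for them, and Tceal7 was at 0. Tceal6 lies outside the block on the same chromosome and Bex6 on chromosome 16.

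**Figure D2:**
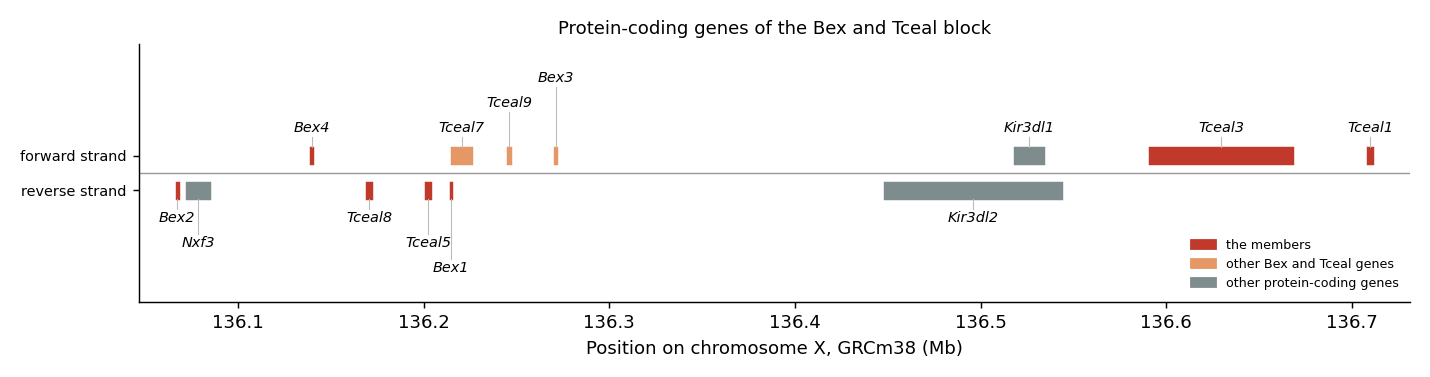
Map of the 13 protein-coding genes between Bex2 and Tceal1 on chromosome X, drawn to scale by position in Mb (horizontal axis, GRCm38) and by strand. Members are red, relatives orange and other genes grey; Bex4 and Tceal8 lie 28540 bases apart on opposite strands.

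The table holds 15 genes of this stretch, of which 7 were at 0 in every library and 6 reached the minimum level, all of them Bex or Tceal genes. The 5 genes of neither family, Nxf3, 5730412P04Rik, Mir6383, Kir3dl2 and Kir3dl1, had a highest value of 0.591 FPKM, in Nxf3. Morf4l2, beyond Tceal1, was abundant in all groups, with means of 197.7 ± 25.1 FPKM (SD, n = 3) in WT, 173.3 ± 22.6 in MUT, 131.7 ± 28.7 in GcKO and 162.2 ± 33.3 in AmcKO. It was chosen as a neighbour after its values were seen. Over chromosome X, limma called 24 genes higher and 56 lower of 414 tested in MUT against WT, 25 and 54 in GcKO and 0 in AmcKO. Of all genes tested, 20.8%, 20.2% and 0.214% were called in either direction in these comparisons. The median log2 change of X-linked genes was 0 in each, beside 0.12, 0.12 and 0.03 over all genes. The balance of higher and lower calls over all genes turned with the scaling, as given below.

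The Armcx, Gprasp and Arxes genes, which lie near the block and are counted with Bex and Tceal to the same X-linked cluster, did not pass the test in any of the 6 comparisons. Of the 11 listed, 3 were tested, Armcx5, Arxes1 and Arxes2, and Armcx2, Armcx6 and Gprasp2 were at 0 throughout. Over all genes tested, 20.8%, 20.2% and 0.214% were called in MUT, GcKO and AmcKO against WT. Armcx5, the highest on average over the 12 libraries, though below Arxes1 in every WT library, ranged over 9.80 to 18.0 FPKM (WT), 16.3 to 19.0 FPKM (MUT), 13.4 to 16.8 FPKM (GcKO) and 14.4 to 16.8 FPKM (AmcKO). The groups overlapped in all of these ranges. The median log2 change of the 3 genes was 0.30 in MUT, -0.03 in GcKO and 0.09 in AmcKO against WT.

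Several of the transcripts share stretches of sequence, so that reads from them can be assigned to the wrong gene. Among windows of 100 bases of the longest annotated Bex4 transcript, 20.7% also occur in Bex1, 4.47% in the pseudogene Gm4322 and 1.36% in Gm12245, and neither pseudogene is in the table. Of the Bex3 windows 7.31% occur in Bex2, and Tceal3, Tceal5 and Tceal6 share 14.1% to 16.8% of their windows pairwise. None of the 100-base windows of Tceal8, Tceal9, Tceal1 or Tceal7 occurs in another annotated gene. The shares depend on the window. At 50 bases 49.7% of the Bex4 windows occur elsewhere (26.0% at 100), with 19.7% in Gm12245 and 18.9% in Gm4322, and so do 0.909% of those of Tceal8, while Tceal9 has none at either length. The values of Bex1, Bex2, Bex4 and Ngfrap1, and the zeros of Tceal3, Tceal5 and Tceal6, are uncertain to an extent that was not measured, and shared sequence touches those of Tceal8 little and those of Wbp5 not at all at these lengths. The closest pair in full length was Tceal3 and Tceal6, with 94.3% identical bases over 1075 aligned, and Bex1 and Bex4 had 75.2% over 806.

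RefSeq promoters (GRCm38.p6, 250 bases before to 50 after the annotated start) were found for all 7 members and all 5 relatives. Those of Bex1 and Bex4 were identical at 291 of 294 aligned bases, and those of Bex2 and Bex3 at 231 of 261. In the MUT libraries Bex4 had about 39 fragments and Bex1 had 1, values that shared sequence makes uncertain. The part of the promoters in these levels was not tested.

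A motif shared by most of these promoters was noticed when their sequences were read and was then searched on both strands of every RefSeq promoter of the same length. The letters CACGTG, an E-box, occur in 7.15% of 32851 promoters, and the longer CACGTGA, which contains it, in 3.77%. Some genes have several promoters, and counted by gene the shares are 8.09% and 4.29% of 27025. The E-box lies in the promoters of 6 of the 7 members (Bex2 being the exception) and of the relatives Bex3, Tceal6 and Tceal7. In most of them TGACG stands a fixed distance before it. The Bex2 window ends with letters that in Bex3 stand directly before TGACG, so an E-box just past its end would not have been found. TGACGNNNNNNNCACGTGA, with a spacer of 7 bases, occurs in 12 promoters (0.0365%), among them those of Bex1, Bex4, Tceal3, Tceal5, Tceal8 and Tceal6. TGACGNNNNNNNNNCACGTGA, with a spacer of 9, occurs in 6 (0.0183%), among them those of Tceal1 and Bex3. Of 27025 genes, 16 had a promoter with either form (10 with the spacer of 7 and 6 with that of 9), and 12 of the 16 are X-linked. Besides the Bex and Tceal genes these include Armcx1, Armcx4 and Armcx6. A match is a description of the letters, and binding was not measured.

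The E-box of each Bex or Tceal gene with either form is printed with 30 bases of the strand of the gene, TGACG and CACGTGA in capitals, to show how the transcripts that were detected (Tceal8, Bex4, Bex3) compare with those at 0 or near it. The stretches lie at chrX:136172221-136172250 for Tceal8, chrX:136138971-136139000 for Bex4, chrX:136270264-136270293 for Bex3, chrX:136215503-136215532 for Bex1, chrX:136707965-136707994 for Tceal1, chrX:136666362-136666391 for Tceal3, chrX:136203886-136203915 for Tceal5 and chrX:135210688-135210717 for Tceal6, and their E-boxes lie 1 to 28 bases from the RefSeq transcript start used.
Tceal8: ttgaTGACGcgatcctCACGTGAccagcag
Bex4: cttcTGACGcaagtggCACGTGActagccc
Bex3: agTGACGcagggccctCACGTGAcccgggg
Bex1: cttcTGACGcaagtggCACGTGActagccc
Tceal1: tgTGACGcgctcccctCACGTGAccaggag
Tceal3: cgggTGACGcggtgttCACGTGAccggcca
Tceal5: ctggTGACGttcctgtCACGTGAtcaggag
Tceal6: agggTGACGctttgctCACGTGActggctt

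The arrangement was present in genes at 0 in all 12 libraries (Tceal1, Tceal3, Tceal5 and Tceal6) and in those detected alike. Bex4 and Bex1 carry the same 30 letters. Wbp5, the relative that rose in MUT and GcKO, has no CACGTG in its promoter. It holds TGACG with a spacer of 7 bases before CATGTGA, which differs from CACGTGA in a single letter.

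Genes of transcript elongation, the process for which Tceal was named, were measured beside the members. Of 38 genes 35 were tested, and limma called 5 higher and 5 lower in MUT, 4 and 4 in GcKO and 0 in AmcKO against WT, with median log2 changes of 0.26, 0.27 and 0.03. Over all genes tested, 20.8%, 20.2% and 0.214% were called in these comparisons. The most abundant was Tceb1 (elongin C), with WT libraries at 12155 to 13530 FPKM, MUT at 4084 to 4527 FPKM, GcKO at 3874 to 6026 FPKM and AmcKO at 6888 to 10336 FPKM. It fell by 1.58 in MUT (limma adjusted p = 1.3e-04) and by 1.43 in GcKO (limma adjusted p = 2.3e-04), and was higher in AmcKO than in MUT by 0.93 (limma adjusted p = 0.00982). Supt4a and Mllt3 also fell by 0.68 and 0.72 in MUT and fell by 0.64 and 0.59 in GcKO. Called in 1 of these groups, Tceb2 (elongin B) and Tceanc fell by 1.27 and 1.01 in MUT, and Tcea1, which encodes TFIIS itself, fell by 0.86 in GcKO. Scaling to the same FPKM sum moved the median log2 change over all genes from 0.12 to 0.70 in MUT and to 0.73 in GcKO against WT. The direction of the smaller falls in this list may therefore depend on the scaling. Supt5, Mepce and Nelfa rose by 1.14, 1.21 and 0.84 in MUT and by 1.41, 1.17 and 0.83 in GcKO, beside Nelfcd (1.31) and Hexim2 (0.74) in MUT and Supt6 (1.08) in GcKO. Between AmcKO and MUT 3 were higher and 0 lower, between AmcKO and GcKO 3 and 1, and between GcKO and MUT none was called by limma.

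Of 25 genes of p75NTR and neurotrophin signalling, the pathway in which Bex1 and Bex3 were described, 14 were tested and Ngfrap1 was the only call, in MUT against WT. Over all genes tested, 20.8%, 20.2% and 0.214% were called in MUT, GcKO and AmcKO against WT. Bdnf and Ngfr (p75NTR itself) were at 0 in all libraries. Rhoa, the highest on average over the 12 libraries, ranged over 20.4 to 34.5 FPKM (WT), 30.8 to 31.3 FPKM (MUT), 27.6 to 40.9 FPKM (GcKO) and 31.4 to 39.3 FPKM (AmcKO). The median log2 change of the list was 0.35 in MUT, 0.29 in GcKO and 0.27 in AmcKO against WT.

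The genes whose pattern over the 12 libraries was most like the mean of the 4 tested members, each standardised on the log2 scale, were Dnajc3 (Pearson r = 0.95), Heatr5a (0.94), Fbxo42, Smchd1 and Slco3a1 (0.93 each). None of the 5 is X-linked. Of the 4 members, Bex1 and Bex2 enter that mean with the same weight as the others although each rests on single fragments in 2 libraries, and the libraries fall into 4 groups, so this r is a description. Dnajc3, a co-chaperone of the endoplasmic reticulum, ranged over 6.35 to 8.98 FPKM (WT), 14.4 to 19.6 FPKM (MUT), 9.48 to 18.6 FPKM (GcKO) and 10.7 to 12.7 FPKM (AmcKO). With each gene taken alone, a choice made after the values were seen, the closest to Bex4 was Lysmd2 (r = 0.96), with Ngfrap1 in place 6 (r = 0.83), and the closest to Tceal8 was Entpd1 (r = 0.92). Bex4 and Tceal8 had r = -0.05 with each other.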

How the data were processed

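FPKM values were deposited by the authors, who aligned reads to mm10 with TopHat2 2.0.13 and computed FPKM with Cufflinks 2.2.1 (Cuffnorm), per the labels; the gene annotation they used is not given in the sources used here. The table has 12 library columns; 18 further columns with the authors' 6 Cuffdiff comparisons were not used. No 2 libraries were identical. The log2(FPKM + 1) values of the 11233 genes with at least 1 FPKM in a library were fitted with limma 3.58.1 (R 4.3.3). The fit had 4 group means, 8 residual degrees of freedom, a variance trend and contrasts. Benjamini-Hochberg adjustment ran over all genes tested, and genes were called at adjusted p under 0.05. A trial on simulated normal values placed changes only in genes of a higher mean level than Bex1, Bex2, Bex4 and Ngfrap1. Its values had no steps of whole fragments, so it does not cover such low genes. No count test was run on FPKM. The value of 1 fragment was read in MUT replicate 2 from the low values of 2706 genes with a single transcript of 1000 to 4000 bases. It was carried to each other library by the median ratio over 19 to 43 of these genes (19, 23 and 27 in WT) at about 1 fragment in both. The step of each gene was read from its own low values. These were taken as whole within 0.15 of a fragment up to 12 fragments, and the largest gap was 0.047, for Bex4. Floors are 3 fragments and cover counting error only. For Tceal8, which has transcripts of several lengths, no such step was found. Annotation and transcripts were GENCODE M21, promoters RefSeq GRCm38.p6; identity was taken from global alignments (Biopython 1.88). Python 3.11.15, pandas 2.3.3, numpy 2.4.6, scipy 1.17.1 and matplotlib 3.10.9 were used. Named genes were the members, their relatives, Dpagt1, called or most abundant genes of each list, defining markers, the 5 most alike genes and the genes between the members. The members and lists were chosen with earlier results of these data known. Alternatives were other pseudocounts, filters, scalings and fits, and leaving out each library.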

Additional observations from a re-analysis of the deposited data

How the results depend on the processing

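The member called in GcKO against WT stayed at 1 in every alternative. The other counts moved. In MUT against WT 2 members were called (Bex2 beside Bex4) after scaling to the same FPKM sum, and 1 to 2 when single libraries were left out (2 without MUT replicate 1). In AmcKO against MUT the count was 1 with a mean of at least 5 FPKM or only the 2 groups compared, and 0 to 1 without single libraries (Bex2 without MUT replicate 1, Tceal8 without AmcKO replicate 6). In GcKO against MUT it was 1 with the mean of at least 5 FPKM, the same-sum scaling, quantile normalization or only the 2 groups, and in AmcKO against GcKO 1 under the same-sum scaling. Same-number libraries of MUT and GcKO, or WT and AmcKO, showed no pairing (correlations of deviations from -0.041 to 0.041, and not every library correlated best with its own number); with the replicate number as a block and only the 2 groups fitted, 2 members were called in GcKO against MUT (1 in the 2-group fit without the block) and 1, Tceal8, in AmcKO against WT (0 without the block). The cause was not tested.

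Of 350 log2 fold changes of members under the alternatives, 330 neither changed sign nor side of the threshold (a value of 0, with no direction, counted as no change of sign), 14 passed it newly and 6 reversed. Bex1 in GcKO against MUT went from -0.031 to 0.035 under the same-sum scaling and ranged from -0.38 to 0.35 without single libraries (positive without MUT replicate 1 or GcKO replicate 2 or 3). Tceal8 in MUT against WT ranged from -0.94 to 1.19 without single libraries. Outside these 350, the relative Ngfrap1 also reversed. In AmcKO against GcKO it went from 0.08 to -0.62 with a pseudocount of 0.1, -0.15 under the same-sum scaling, and ranged from -0.80 (without AmcKO replicate 6) to 0.52 without single libraries.

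Scaling to the same sum moved the median log2 change of all genes from 0.12 to 0.70 in MUT and to 0.73 in GcKO against WT, and genes called from 2332 (1063 higher, 1269 lower) to 4894 (4641 and 253) and from 2264 (978 and 1286) to 5010 (4769 and 241). In AmcKO against MUT they went from 729 (570 and 159) to 2566 (165 and 2401), in AmcKO against GcKO from 613 (538 and 75) to 2606 (128 and 2478), and in GcKO against MUT from 23 to 75. Quantile normalization gave 1473 in MUT, 1356 in GcKO, 250 in AmcKO against GcKO and 59 in GcKO against MUT. A fold change over 2 left 1478, 1372, 390 and 264 in MUT, GcKO, AmcKO against MUT and AmcKO against GcKO; without the variance trend the last pair had 386 and 199. AmcKO against WT, with 24, had 44 with a pseudocount of 0.1 or the length correction, 52 with the mean of at least 5 FPKM, 8 with only the 2 groups and 7 with the block added. AmcKO against GcKO had 115 with only the 2 groups. Without single libraries the genes called ranged from 1493 to 1998 (MUT), 1353 to 2304 (GcKO) and 15 to 135 (AmcKO; 135 without its replicate 5) against WT, 9 to 24 in GcKO against MUT, 354 to 715 in AmcKO against MUT and 313 to 752 in AmcKO against GcKO.

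Most values rest on few fragments and 3 libraries a group, and zeros in WT have the highest floors.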
